A study of Mus musculus with 16 samples.

Results

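The regions described here are the places outside promoters where the deposited peak lists of KLF1 and of its mutant form Nan-KLF1 overlap. They are all rows of the KLF1 list whose location label is not promoter and whose interval shares at least 1 bp with an interval of the Nan-KLF1 list. The rule found 744 peaks among the 3762 non-promoter KLF1 peaks, and among 5326 KLF1 peaks in all. The Nan-KLF1 list holds 2758 peaks. The peaks were therefore chosen by the peak calls of both experiments, so their fold enrichments are given as a description without a test. KLF1 peaks outside promoters that met no Nan-KLF1 peak number 3018, and Nan-KLF1 peaks outside promoters that met no KLF1 peak number 1330.

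The series has 16 mouse samples. For ChIP, KLF1-null erythroblasts of the immortalized K1 line carried a transgene for either KLF1-ER (K1-ER cells) or Nan-KLF1-ER (K1-NanER cells), proteins fused so that tamoxifen induces them. These cells were given 200 nM 4-hydroxytamoxifen for 3 h and fixed with 1% formaldehyde, and each factor has 1 ChIP library and 1 input library, made after pooling 3 replicates, with the same KLF1 antibody for both. RNA labelled with 500 uM 4-thiouridine (4sU) for 1 h was sequenced from 2 K1-ER clones (A and C), 2 K1-NanER clones (B and X) and 2 samples of parental K1 cells, which have no KLF1 transgene. All 3 lines lack the endogenous factor, and 200 nM 4-hydroxytamoxifen is given in the labels of all of them. Polyadenylated RNA, after removal of globin RNA, came from whole fetal livers at embryonic day 14.5, 3 of Nan/+ and 3 of wild-type (+/+) embryos.

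KLF1 is the founding erythroid member of the Krüppel-like factors, which bind GC-rich and CACCC-type elements with 3 zinc fingers. It activates globin, heme, membrane skeleton and cell cycle genes as red cells mature, through promoters and through enhancers that lie in introns or at a distance. The Nan allele of the mouse changes 1 amino acid in the second of these fingers and causes a dominant anemia.

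Only the 8-base central motif that the authors give for each peak is printed as sequence, and its strand is not given in the sources used here. The deposited lists hold 18 such strings, all of which have 2 C at the start and 3 C at the end. The strings below are shown because the shared regions differ most from the unshared ones in their 3 variable bases, which are in capitals (bases 3, 4 and 5, counted from 1 at the 5′ end). The classic KLF1 site has C at base 4 and A or G at base 5. No string of the lists has G at base 4 or C at base 5, so the lists cannot show such sites.
A at base 3, C at base 4, A at base 5: ccACAccc
A at base 3, C at base 4, G at base 5: ccACGccc
C at bases 3 and 4, G at base 5: ccCCGccc
C at bases 3 and 4, A at base 5: ccCCAccc
C at bases 3 and 4, T at base 5: ccCCTccc
C at base 3, T at base 4, G at base 5: ccCTGccc
C at base 3, A at base 4, G at base 5: ccCAGccc

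Set beside the KLF1 peaks that Nan-KLF1 did not share, the shared regions less often had ccACAccc, ccACGccc or ccCCAccc. They more often had ccCCGccc, ccCCTccc or, taken as a class, a string with A or T at base 4. Of the 744 regions, 16 (2.15%) had ccACAccc in the KLF1 list, against 16.3% of the 3018 unshared KLF1 peaks. The string ccACGccc stood at 86 regions (11.6%), against 20.9% of the unshared KLF1 peaks, and ccCCAccc at 51 (6.85%), against 11.0%. The string ccCCGccc was the commonest string of the shared regions, at 127 of them (17.1%), against 9.77% of the unshared KLF1 peaks and 4.89% of the unshared Nan-KLF1 peaks. Of the strings with another base at position 4, ccCTGccc stood at 65 regions (8.74%) and ccCAGccc at 67 (9.01%), against 2.58% and 3.15% of the unshared KLF1 peaks. The unshared Nan-KLF1 peaks had these 2 strings at 16.9% and 13.8%, so the shared regions lie between the 2 unshared sets for both.

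The same contrast appears as the share of all non-promoter KLF1 peaks with a given string that overlapped a Nan-KLF1 peak. Over all strings that share was 19.8%. It was 16 of 508 peaks for ccACAccc, or 3.15% (95% Wilson interval 1.95 to 5.05, which covers counting error only). For ccACGccc it was 12.0% (9.82 to 14.6, n = 717), for ccCCAccc 13.4% (10.3 to 17.1, n = 382) and for ccCCGccc 30.1% (25.9 to 34.6, n = 422). For ccCTGccc it reached 45.5% (37.5 to 53.6, n = 143) and for ccCAGccc 41.4% (34.1 to 49.1, n = 162). The intervals of ccCTGccc and ccCAGccc do not overlap those of ccACAccc, ccACGccc or ccCCAccc, but that of ccCAGccc overlaps that of ccCCGccc. Each other string with A or T at base 4 had a lower share, up to 33.3% (ccCTAccc, n = 24, and ccATGccc, n = 21). The commonest of these, ccCTTccc, stood at 23.4% (n = 94), below ccCCGccc, and its interval overlaps that of ccCCAccc. The string ccCCTccc, which has C at base 4, stood at 31.9% (n = 191). The contrast between single strings is therefore not one of base 4 alone. Read from the Nan-KLF1 list, the order turned round: of its non-promoter peaks, 74.0% of those with ccACGccc (n = 96) and 65.6% of those with ccCCGccc (n = 189) overlapped a KLF1 peak of any location, against 27.4% of those with ccCTGccc (n = 310) and 29.2% of those with ccCAGccc (n = 260). With 1 ChIP library per factor these shares have no replicate check, and peaks are not replicates of a condition.

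Grouped into classes, 280 of the 744 regions (37.6%) had C at base 4 and A or G at base 5 in the KLF1 list, 84 (11.3%) had C at base 4 and T at base 5, 210 (28.2%) had A or T at base 4, and 170 (22.8%) had no motif. In the Nan-KLF1 list the same regions gave 241, 93, 227 and 183. Of the unshared KLF1 peaks 58.0% fell in the first class and 13.3% had A or T at base 4. Among unshared Nan-KLF1 peaks those shares were 8.57% and 39.8%, and 41.3% had no motif. Counting only peaks with a motif, C stood at base 4 in 63.4% of the shared regions by the KLF1 list and 59.5% by the Nan-KLF1 list, against 83.4% of unshared KLF1 and 32.3% of unshared Nan-KLF1 peaks. At base 3, C stood in 73.5% of the shared regions with a motif in the KLF1 list, against 44.6% of the unshared KLF1 peaks with one. It also stood in 80.4% of the unshared Nan-KLF1 peaks and 76.0% of the promoter KLF1 peaks with an overlap, so it is not particular to these regions.

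**Figure D1:**
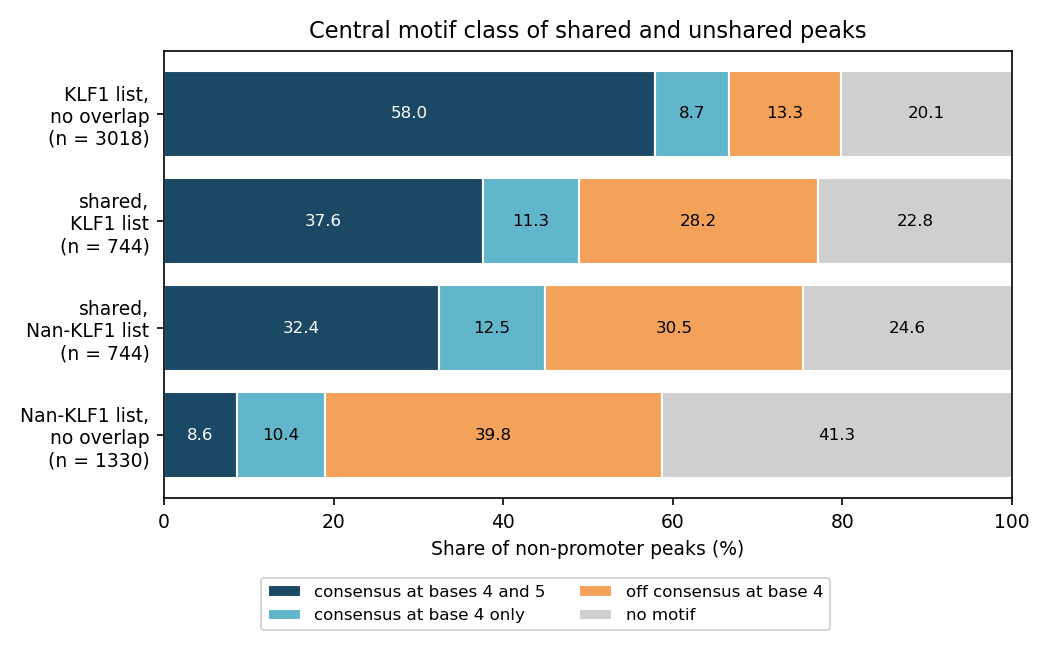
Share (%) of non-promoter peaks in each class of central motif, for unshared KLF1 peaks, shared regions read from either list, and unshared Nan-KLF1 peaks; the number of peaks stands beside each bar and consensus means C at base 4 and A or G at base 5. The shared regions, at 37.6% and 32.4% in the consensus class, lie between 58.0% of the unshared KLF1 peaks and 8.57% of the unshared Nan-KLF1 peaks.

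KLF1 peaks in the highest of 4 groups of fold enrichment were shared more often than those in the lower groups. The lower groups differed little, with overlapping 95% intervals. Peaks with A or T at base 4, taken as a class, were shared more often than those with the classic site in every group. The non-promoter KLF1 peaks were divided by fold enrichment into 4 groups of nearly equal size. In the lowest group 12.8% of 876 peaks were shared, in the next 12.2% of 953, in the third 15.6% of 990, and in the highest, from a fold of 114.23 up, 38.4% of 943. With C at base 4 and A or G at base 5, the shares in the 4 groups were 7.96%, 6.07%, 9.16% and 31.5%. With A or T at base 4 they were 25.7%, 28.7%, 29.7% and 50.9%, and the 95% intervals of these 2 classes did not overlap in any group. Peaks with ccACAccc were shared at 10 of 84 (11.9%) even in the highest group. The depth of the ChIP libraries is not given in the files.

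**Figure D2:**
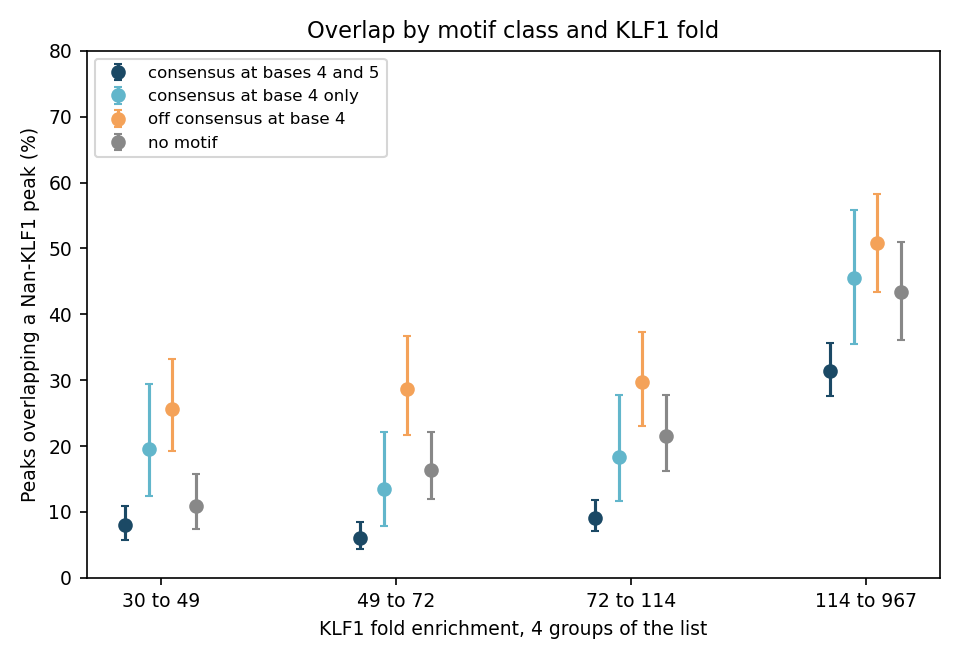
Share (%) of non-promoter KLF1 peaks that overlap a Nan-KLF1 peak, by group of KLF1 fold enrichment (x axis) and motif class (colour); bars are 95% Wilson intervals for counting error. Peaks off the consensus at base 4 lie above the consensus class in each group, from 25.7% against 7.96% in the lowest to 50.9% against 31.5% in the highest.

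The fold enrichment, the authors' ratio of ChIP over input at a peak, describes a peak within its own list only. In the KLF1 list the shared regions ranged from 30.35 to 966.81 with a median of 110.15 (95% interval of the median 103.35 to 118.87), against a median of 67.62 for the unshared KLF1 peaks. In the Nan-KLF1 list they ranged from 30.48 to 1393.93 with a median of 126.72 (116.97 to 131.31), against 97.48 for the unshared Nan-KLF1 peaks. These values had a part in choosing the regions. The intervals were also longer, with a median length of 803.5 bp in the KLF1 list against 601.5 bp in the unshared KLF1 peaks. Across the 744 regions the 2 folds had a Pearson r of 0.37 and a Spearman rho of 0.30, given as a description since all points come from the same pair of ChIP libraries. Over the 140 regions with no motif in either list the values were 0.63 and 0.45, and over the 531 with a motif in both they were 0.28 and 0.26.

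The Nan-KLF1 folds are coarse. Of the 744 regions, 529 (71.1%) lie within 0.03 of a whole multiple of 9.748, the commonest value is 116.97 with 47 regions, and only 187 different values occur, against 535 different values in the KLF1 list. The median Nan-KLF1 fold of 126.72 is 13.0 such steps, so a difference of 1 step between regions is the smallest the list resolves for most of them.

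**Figure D3:**
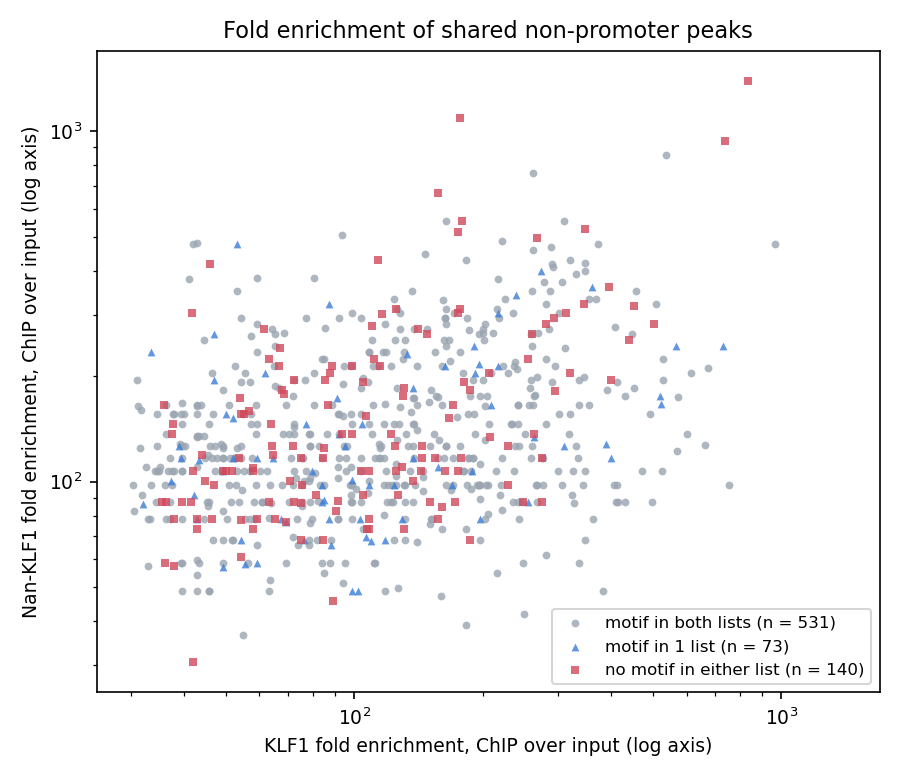
KLF1 fold enrichment (x axis, log) against Nan-KLF1 fold enrichment (y axis, log) of the 744 shared regions, coloured by whether the lists give a central motif. Rows of points at equal height are the repeated Nan-KLF1 values such as 116.97, and the 3 highest Nan-KLF1 values, from 941.91 to 1393.93, are regions with no motif in either list.

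By the KLF1 fold the strongest shared region was distal to Scd2, a stearoyl-CoA desaturase, at chr19:44341091-44342320 (mm9, as all coordinates here). It had a KLF1 fold of 966.81, a Nan-KLF1 fold of 477.64 and ccCCGccc in both lists. The next was distal to Fam19a3 (chr3:104564787-104565909), at 834.45 and 1393.93, the highest Nan-KLF1 fold of all shared regions, with no motif in either list. A region distal to the zinc finger gene Zfp119b (chr17:56071145-56071943) was high in both lists as well, at 737.55 and 941.91, again without a motif. The region in the UTR of Snhg3, a small nucleolar RNA host gene (chr4:131911820-131912759), had a KLF1 fold of 732.21 with ccACAccc in the KLF1 list, and a Nan-KLF1 fold of 243.69 with no motif in that list.

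Among the other regions of high KLF1 fold the Nan-KLF1 fold varied. An intron of Tsga10 (chr1:37921133-37922066) stood at 752.23 in the KLF1 list and at 97.48 in the Nan-KLF1 list, where the median of the shared regions is 126.72 and the upper quartile 194.96. A distal region of Wdr26 (chr1:183186410-183188242) stood at 661.85 and 127.23. Above that quartile, an intron of Elovl1, a fatty acid elongase (chr4:118100205-118101444), stood at 615.13 and 204.7. The region in A830082K12Rik (chr13:78302012-78303418), above it as well, stood at 673.37 and 211.34 with ccACTccc in both lists.

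High Nan-KLF1 folds were found at other places. An intergenic region with no gene name at chr17:4626094-4626648 had 1091.75 in the Nan-KLF1 list and 176.51 in the KLF1 list. An intron of Sema4b, a semaphorin (chr7:87336191-87336869), had 857.81 and 536.68 and carried ccACTccc in both lists. An intron of Cttnbp2nl (chr3:104843679-104844628) had 759.01 and 262.42 with ccCTGccc in both lists. An intron of Cyth2, a cytohesin (chr7:53055654-53056398), had 555.62 and 309.41, with ccCCGccc in the KLF1 list and ccCTTccc in the Nan-KLF1 list. The 3 regions of Fcgr3, an Fc receptor gene, had Nan-KLF1 folds from 516.02 to 669.13 and KLF1 folds from 157.09 to 179.27, and none of them had a motif. Of the 8 regions with the highest Nan-KLF1 fold, Fcgr3 supplies 2.

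At the low end the KLF1 folds were 30.35 (Uncx, distal), 30.54 (Gm7102, distal) and 30.95 (Smim1, an intron of a small membrane protein gene tied to a blood group), and the lowest KLF1 fold in the whole list is 30.01. Nan-KLF1 folds were lowest at 9430083A17Rik (30.48), Cd9 (36.58, a tetraspanin) and Nr2f1 (38.99), and the lowest in that list is 30.06. The shortest overlaps were 44 bp at Gm10818, 196 bp at Atp9a and 202 bp at Gtf3c5. Just outside the rule were non-promoter KLF1 peaks that missed a Nan-KLF1 peak by 40 bp at Zfp703, 50 bp at Clstn3 and 55 bp at Sgk3. A high KLF1 fold alone did not make a peak shared: introns of Dennd6a, Gm12216 and Arhgap29 had KLF1 folds of 804.12, 784.51 and 662.11 and no overlap.

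The overlap was mostly close. The summits, the points of highest signal in each peak, lay a median of 34 bp apart (0 to 1822), 479 regions (64.4%) had them at most 50 bp apart, and 6 had them at the same base. When a region met 2 Nan-KLF1 intervals, as 14 did, the one with the longer overlap was read. A median of 64.8% of the KLF1 interval and 100% of the Nan-KLF1 interval lay in the overlap. The authors' own pairing of peaks, which is kept as a column of the deposited lists, holds 485 of the 744 regions (65.2%). Whether both lists named the same motif followed this distance. With summits at most 50 bp apart, 273 of the 352 regions with a motif in both lists (77.6%, 95% Wilson interval 72.9 to 81.6) had the same string. From 51 to 200 bp it was 60 of 132 (45.5%, 37.2 to 54.0), and beyond 200 bp it was 14 of 47 (29.8%, 18.7 to 44.0). In all, 347 regions (46.6%) had the same string, 184 had different strings, 43 had a motif in the KLF1 list alone, 30 in the Nan-KLF1 list alone and 140 in neither.

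Introns held 404 of the shared regions (54.3%) and distal positions 237 (31.9%), followed by 38 intergenic regions (5.11%), 27 in UTRs, 26 downstream of genes and 12 in coding sequence. The shares over all 3762 non-promoter KLF1 peaks were close, at 51.9% in introns, 34.0% distal and 6.03% intergenic. The lists gave the same location label to 700 of the shared regions (94.1%), while 24 were labelled promoter in the Nan-KLF1 list. The share of a chromosome's non-promoter KLF1 peaks that were shared ran from 10.6% on chromosome X (7 of 66) to 26.9% on chromosome 3 (45 of 167). Most regions stood alone: 584 of 638 gene names had 1 region, 44 had 2 and 10 had 3 or more, and 76 regions (10.2%) had another shared summit within 10 kb. A gene here is the name the authors gave a peak, up to 300 kb away per the file headers. The list of names holds 1 that is a number, and 37 regions have none.

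Genes with 4 regions were 8430427H17Rik, Gse1, Lyl1, Rn4.5s and Ttr. Lyl1 encodes a basic helix-loop-helix factor of blood cells, and its 4 regions spanned 29884 bp of chromosome 8 with KLF1 folds from 104.82 to 261.65 and Nan-KLF1 folds from 116.97 to 192.04. Gse1 had KLF1 folds from 46.04 to 305.83 and Nan-KLF1 folds from 97.48 to 419.16. The 4 regions of the small RNA gene Rn4.5s had KLF1 folds from 43.98 to 68.48 and none had a motif. Those of Ttr, which encodes the hepatocyte protein transthyretin, rested on 3 Nan-KLF1 peaks and had KLF1 folds of at most 45.76 and Nan-KLF1 folds of at most 58.49.

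The genes of the shared regions were then read in the authors' expression tables, which hold 1 FPKM per group and no value per replicate, so that no spread between replicates can be given. The 4sU table lists 1556 genes, every one of them called (q of at most 0.05) in K1-ER or in K1-NanER against K1. Its K1 levels do not go below 0.1 FPKM, at which many genes are listed and which is called the floor here. It held 155 of the 638 genes of shared regions. Both comparisons use the same K1 samples, so their values are set side by side only.

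Among the genes of this preselected table, most of those with a shared region rose in K1-ER cells. Of the 155 genes, 115 were called in K1-ER (74.2%), where 49.4% of the whole table was called. There were 109 risen genes, beside 37.9% of the table, and 6 fallen ones, beside 11.5%. In K1-NanER 97 were called (62.6%) where 75.7% of the table was called; 83 had risen, beside 47.4%, and 14 had fallen, beside 28.3%. The median log2 fold change of the 155 genes was 1.58 in K1-ER and 1.17 in K1-NanER, against 0.72 and 1.04 over the table, as copied from the authors' deposited table. In K1-NanER the share called among these genes was below the background. A gene of this table not called in K1-ER must be called in K1-NanER, so the shortfall is not read as a result about these genes. Genes of unshared non-promoter KLF1 peaks were below it too, at 67.2% called. Among the genes called in K1-NanER, the share that had risen was 85.6% (95% Wilson interval 77.2 to 91.2), against 62.6% of the table's called genes.

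The regions are not the only peaks of these genes. A promoter peak of either factor is present for 59 of the 155 genes. Of the genes named below for 4sU RNA, these 59 include Klf10, Azin1, Zfp36, Lasp1, Btg2, Abcb10, Gypc, Rhd, Stom, Zbtb7a, Pim1 and Sp1. Without the 59, 96 genes remained, of which 64 had risen and 4 had fallen in K1-ER and 52 had risen and 10 had fallen in K1-NanER. Genes with unshared non-promoter KLF1 peaks and no shared region gave 180 risen and 20 fallen of 326 in K1-ER (61.3% called) and 164 risen and 55 fallen in K1-NanER. The 95% intervals of the share called in K1-ER were 66.8 to 80.4 for genes with a shared region and 56.0 to 66.5 for these, while without the genes that have a promoter peak the first became 61.1 to 79.0, which overlaps. The 326 genes were not filtered for promoter peaks, so that last comparison sets unlike groups side by side. In K1-NanER the intervals of the 155 and the 326 genes were 54.7 to 69.8 and 61.9 to 72.0, and overlap too. Genes of shared promoter peaks that have no shared region outside promoters gave values close to those of the 155 genes. Of these 126 genes, 71.4% were called and 69.8% had risen in K1-ER, with 64.3% and 55.6% in K1-NanER. The rise is thus not particular to shared regions outside promoters. Genes with no peak in either list divided about evenly, with 154 risen and 134 fallen of 768 in K1-ER and 313 of each in K1-NanER.

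**Figure D4:**
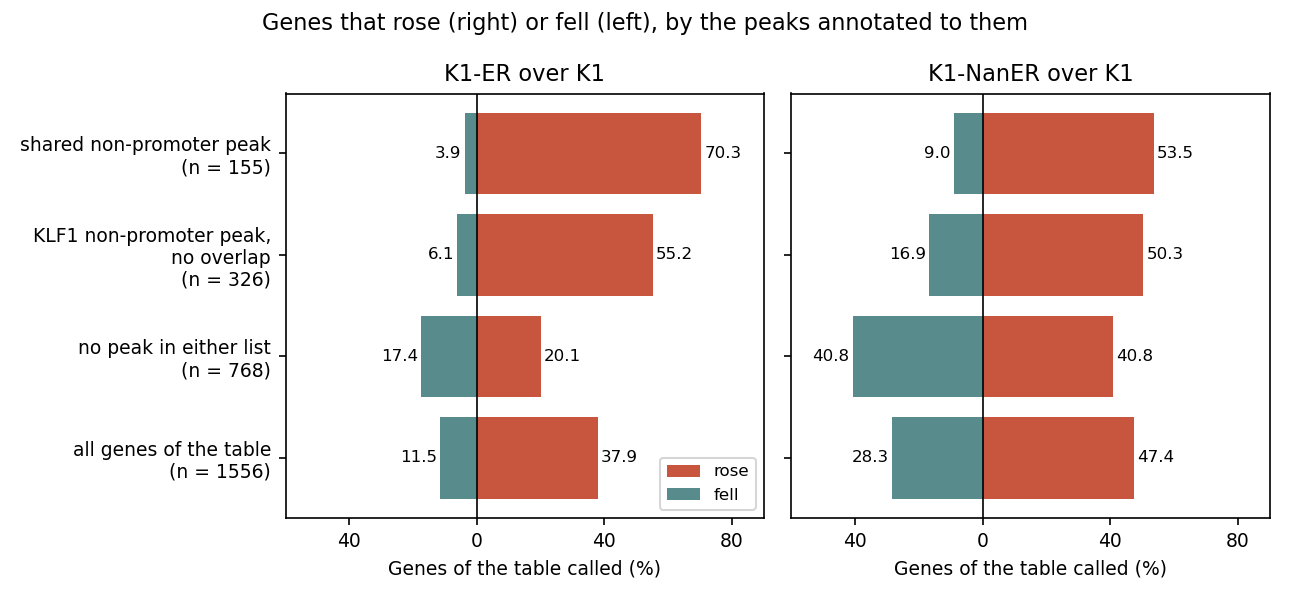
Share (%) of genes in the 4sU table that were called and had risen (right) or fallen (left) in each line against K1, by the peaks annotated to the gene. Genes with a shared non-promoter peak had risen at 70.3% in K1-ER and 53.5% in K1-NanER, beside 37.9% and 47.4% of the table.

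The largest rises in K1-ER among these genes included regulators and genes listed at the 0.1 FPKM floor in K1, for which no fold is given. Klf10, a Krüppel-like factor induced early by TGF-beta, went from 3.39 FPKM in K1 to 399 in K1-ER and 347 in K1-NanER, by the authors' values. Its shared region is intergenic (chr15:38314068-38314856), with a KLF1 fold of 37.33 and a Nan-KLF1 fold of 100.59, and 124 of the 744 regions have a KLF1 fold under 50. That region lies 84108 bp outside the Klf10 locus, the farthest of the 204 regions with a locus, and Klf10 also has a promoter peak. Phyhip went from 0.793 to 25.7 FPKM in K1-ER and stood at 5.49 in K1-NanER, where it was not called (q = 0.060 in the authors' deposited table). Genes listed at the floor in K1 included Crip1 (18.4 FPKM in K1-ER), Pdzk1ip1 (6.46 in K1-ER and 5.46 in K1-NanER) and Fstl3, a follistatin-like gene (3.08 in K1-ER). The Pdzk1ip1 region is distal (chr4:114767905-114769224), with folds of 225.49 and 331.42 and ccCAGccc in both lists. The region of Crip1 had ccCCTccc in the KLF1 list and ccCCGccc in the Nan-KLF1 list.

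In K1-NanER the largest rises, after Klf10 and Pdzk1ip1, were those of Rarg, a retinoic acid receptor gene listed at the floor in K1 and at 3.67 FPKM in K1-NanER, and of Lasp1, an actin-binding protein gene, from 0.541 to 15.9 FPKM. Azin1, the antizyme inhibitor gene, rose from 6.46 to 124 FPKM in K1-NanER, and stood at 25.6 in K1-ER. Its region was among the stronger ones in both lists (chr15:38399662-38400678, distal), at 361.07 and 360.67. Zfp36, which encodes an RNA-decay protein, went from 8.03 to 154 FPKM in K1-NanER and 56.4 in K1-ER. It had 2 shared regions, 1 downstream and 1 distal, with KLF1 folds of 183.38 and 48.83 and Nan-KLF1 folds of 97.48 and 128.03.

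Falls were few. Rmrp, the RNA of the mitochondrial RNA processing ribonuclease, fell from 9267 FPKM in K1 to 3832 in K1-ER and 2036 in K1-NanER. Its region (chr4:43503491-43504173) had ccCTGccc in both lists. Zc3hav1, an antiviral zinc finger gene, fell from 39.7 to 8.39 FPKM in K1-ER and 10.4 in K1-NanER. Slc1a3, a glutamate transporter gene, fell from 21.8 to 5.13 FPKM in K1-ER and 10.6 in K1-NanER, called in both. Pnmt fell from 1.77 FPKM to the floor in K1-ER. In K1-NanER Crtc1 fell from 18.3 to 6.14 FPKM and Nmnat3, an NAD synthesis gene, from 19.9 to 7.31. Among the 8 regions of highest KLF1 fold, the genes of 2 are in the 4sU table. Scd2 rose from 22.4 FPKM in K1 to 204 in K1-ER and 137 in K1-NanER, and Wdr26 rose in K1-ER from 18.4 to 35.2 FPKM and stood at 29.3 in K1-NanER, which was not called.

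Counts for the function lists below cover all list genes in the 4sU table, with or without a shared region. Over that whole table, 37.9% of genes rose and 11.5% fell in K1-ER, against 47.4% and 28.3% in K1-NanER. No gene of the globin list had a shared region. The list has 9 genes, of which 2 had any peak. Of the list, 5 genes occur in the 4sU table, and all 5 rose in K1-ER and 3 in K1-NanER. Among these 5, Hbb-bh1 stood at 123.3 FPKM in K1, Hbb-y at 20.8, and the other 3 at the floor. In K1-ER Hbb-bh1 stood at 4174 FPKM.

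Heme synthesis and iron uptake is a list of 24 genes, of which 15 had a peak and 3 a shared region. Of the list, 12 genes are in the 4sU table, with 8 risen and 0 fallen in K1-ER and 2 risen and 4 fallen in K1-NanER. Alas2, the first enzyme of erythroid heme synthesis, has its region in an intron (chrX:146984049-146984951), at folds of 156.9 and 174.94, with summits 1 bp apart and ccACGccc in both lists. Its level rose from 5.81 FPKM in K1 to 25.6 in K1-ER and 26.0 in K1-NanER. Abcb10, a mitochondrial transporter gene, had a distal region at 63.29 and 87.73. It rose in K1-ER from 104 to 364 FPKM and stood at 222 in K1-NanER, which was not called (q = 0.058 in the authors' deposited table). Urod, uroporphyrinogen decarboxylase, had an intron region at 39.46 and 116.97 with ccCCGccc in both lists, and is not in the table.

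In the membrane and skeleton list 8 of 35 genes had shared regions. Of its 11 genes in the 4sU table, 10 rose and 0 fell in K1-ER, and 4 rose and 1 fell in K1-NanER. Among these 11, the 5 with a shared region had 4 risen and 0 fallen in K1-ER, and 0 risen and 1 fallen in K1-NanER. Slc4a1, the anion exchanger band 3, has an intron region (chr11:102224597-102225256) at 56.92 and 77.98, with ccACGccc in the KLF1 list, ccCTGccc in the Nan-KLF1 list and summits 217 bp apart. Its level rose in K1-ER from 2.00 to 6.79 FPKM and stood at 1.43 in K1-NanER. Ank1, erythroid ankyrin, has 2 intron regions without a motif, the stronger (chr8:24163957-24164918) at 263.08 and 136.47. It stood at 38.6 FPKM in K1 and 33.7 in K1-ER, which was not called, and fell to 16.5 in K1-NanER.

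Others of that list rose in K1-ER and were not called in K1-NanER. Gypc, glycophorin C, stood at 12.5 FPKM in K1 against 42.2 in K1-ER and 21.2 in K1-NanER, with a region of 274.58 and 87.73. Rhd stood at 14.8, 35.0 and 14.9 FPKM, with a region at 43.69 and 165.71 that had ccCTTccc in both lists. Stom, stomatin, stood at 43.8, 86.2 and 60.3 FPKM, with a region high in the KLF1 list (249.23) and near the lowest in the Nan-KLF1 list (41.8). Piezo1, a mechanosensitive channel, had 2 intron regions at 161.26 and 329.21 and at 37.49 and 107.23, and with the adducin genes Add1 and Add3 is not in the table.

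Erythroid transcription factors had shared regions at 6 of 26 genes, and of the 8 list genes in the 4sU table all 8 rose in K1-ER and 5 rose in K1-NanER. Nfe2, the larger subunit of NF-E2, has a distal region (chr15:103088235-103089493) at 345.29 and 198.94 with ccCCGccc in both lists, and an intron region (chr15:103081856-103082694) at 140.39 and 140.22 with ccCTTccc in both. Nfe2 RNA stood at 8.07 FPKM in K1 against 148 in K1-ER and 30.5 in K1-NanER, and was called in both. Sox6, a factor of globin switching, has an intron region (chr7:123177630-123178406) at 80.72 and 204.7 with ccCCTccc in both lists, and levels of 2.31, 13.1 and 10.4 FPKM in that order, called in both. Zbtb7a, a globin repressor gene, had levels of 107, 515 and 242 FPKM, with the last not called (q = 0.066 in the authors' deposited table), and a distal region at 112.11 and 58.49. Cbfa2t3, a corepressor gene, rose in both lines, from 1.86 FPKM to 9.42 and 5.72. Zfpm1, the GATA1 partner FOG1, had 3 intron regions, with Nan-KLF1 folds from 153.63 to 380.16 and KLF1 folds from 41.11 to 106.78.

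Signalling genes of the erythropoietin and kit list had 5 shared regions among 20 genes. Of the 8 list genes in the table, 5 rose and 1 fell in K1-ER, and 1 rose and 1 fell in K1-NanER. Epor, the erythropoietin receptor, has an intron region (chr9:21766646-21767400) at 184.98 and 116.97 with ccCCGccc in both lists. It stood at 129 FPKM in K1 and 139 in K1-NanER, and rose to 485 in K1-ER. Pim1, a kinase gene downstream of cytokine receptors, has an intergenic region (chr17:29574945-29575775) at 57.39 and 260.66 with ccCAGccc in both lists. Its levels were 166 FPKM in K1 against 555 in K1-ER and 215 in K1-NanER, which was not called. Stat5a, Ptpn11 and Pik3r1 had KLF1 folds of 110.26, 184.98 and 268.04 and are not in the table.

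Cell cycle genes had shared regions at 4 of 30 genes. Of the 11 list genes in the table, 6 rose and 1 fell in K1-ER, and 6 rose and 0 fell in K1-NanER. The 2 of them with a shared region, E2f2 and Ccnd3, rose in K1-ER, and 0 were called in K1-NanER. E2f2, an S-phase transcription factor gene, has an intron region (chr4:135733305-135734559) at 347.26 and 107.23, with summits 26 bp apart, ccCCAccc in the KLF1 list and ccACAccc in the Nan-KLF1 list. In the Nan-KLF1 list 15 of the shared regions had ccACAccc. E2f2 RNA rose from 43.4 FPKM in K1 to 151 in K1-ER and stood at 26.0 in K1-NanER, which was not called (q = 0.17 in the authors' deposited table). Ccnd3, cyclin D3, has 2 intron regions (chr17:47644762-47645686 and chr17:47672510-47673694) at 188.59 and 107.23 and at 239.05 and 341.17. Ccnd3 RNA stood at 36.0 FPKM in K1, rose to 278 in K1-ER, and stood at 64.8 in K1-NanER, not called (q = 0.37 in the authors' deposited table).

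The Krüppel-like and Sp family had shared regions at 5 of 22 genes, and of 9 in the table, 5 rose in K1-ER and 7 rose in K1-NanER, with none fallen in either. Klf11 has an intron region (chr12:25336354-25337471) at 236.77 and 214.45 with ccACGccc in both lists, and levels of 8.81 FPKM in K1 against 53.3 in K1-ER and 46.8 in K1-NanER. Klf9 has a distal region at 195.73 and 97.48 and levels of 33.0, 92.9 and 85.2 FPKM. Sp1 stood at 17.2 FPKM in K1 and 28.5 in K1-ER, not called, and rose to 37.5 in K1-NanER. In the apoptosis list 2 of 26 genes, Btg2 and Mcl1, had shared regions, and 7 of 13 in the table rose in K1-ER with 1 fallen, against 5 risen and 3 fallen in K1-NanER. Btg2, an antiproliferative gene, rose from 27.0 FPKM in K1 to 337 in K1-ER and 488 in K1-NanER.

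**Figure D5:**
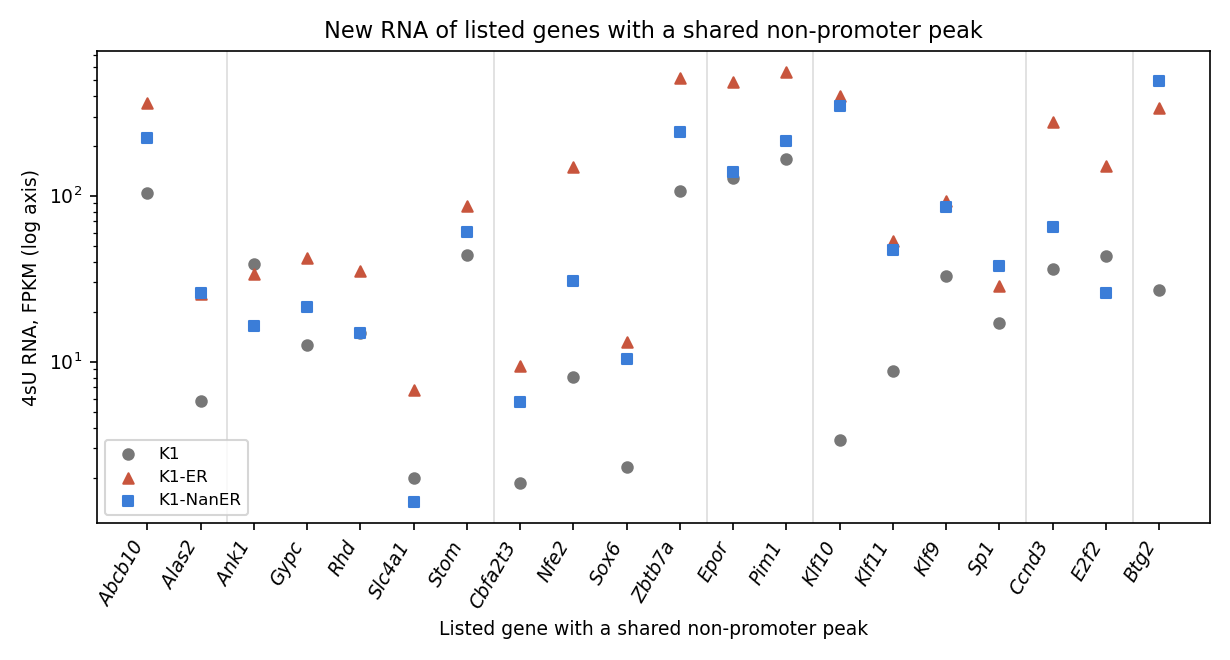
4sU RNA level (FPKM, log axis) in K1, K1-ER and K1-NanER cells of the 20 genes of the function lists that have a shared region and are in the table, with 1 authors' value per group and no error bar; vertical lines part the lists in the order heme, membrane, transcription factors, signalling, Krüppel-like, cell cycle and apoptosis. Epor, Rhd and E2f2 in K1-NanER lie at or under 139, 14.9 and 26.0 FPKM, near or below their K1 values, while Alas2, Klf9, Klf10, Klf11 and Sox6 lie near their K1-ER values.

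Of these 20 genes, a group that had risen in both lines (Alas2, Sox6, Cbfa2t3, Nfe2, Klf9, Klf10, Klf11 and Btg2) thus stands beside a group called as risen in K1-ER alone (Abcb10, Gypc, Rhd, Slc4a1, Stom, Zbtb7a, Epor, Pim1, Ccnd3 and E2f2). Ank1 was called in K1-NanER alone, as fallen, and Sp1 in K1-NanER alone, as risen. Being called in 1 line and not in the other does not show that the lines differ, and the table gives no test of K1-ER against K1-NanER.

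In the liver, 44 genes of shared regions are in the table of genes that differed between Nan/+ and wild type, all of which have a log2 size of at least 1. Of these, 35 had risen in Nan/+, beside 75.4% of the table, and 9 had fallen, beside 24.6%; the share risen was 79.5% (95% Wilson interval 65.5 to 88.8), near the background. For whole organs, fewer cells of a type and less RNA per cell cannot be told apart. Gng2, which encodes a gamma subunit of G proteins, rose most (5.39 to 160.5 FPKM), ahead of Foxh1 (2.60 to 63.0), Pdzk1ip1 (13.2 to 304), Cacna2d2 (0.18 to 2.04), Bbs2 (2.21 to 25.3) and Tppp3 (1.43 to 13.2). E2f2 fell most, from 94.3 FPKM in wild type to 16.1 in Nan/+, followed by F830002L21Rik (5.18 to 1.38), Dclk2 (2.72 to 0.75) and Rap1gap (3.27 to 1.33). Sox6 fell from 19.3 to 9.30 FPKM and Sp4 from 8.55 to 4.25, while Cbfa2t3 rose from 3.50 to 7.78.

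Markers of other blood cells moved in the same livers. Of 10 granulocyte markers 9 are in the liver table and all 9 had risen, with a summed level of 462 FPKM in wild type and 2735 in Nan/+. The 4 macrophage markers in the table had risen too (131 to 310 FPKM summed), as had 3 of 8 mast cell markers and 2 of 10 megakaryocyte markers. The granulocyte marker Prtn3 has a shared region (an intron, at 124.96 and 107.23) and rose from 35.0 to 215 FPKM. Their part in the liver values was not tested. The table holds called genes only, so markers missing from it are not known to be unchanged. In the 4sU table no macrophage, granulocyte or mast cell marker of the lists occurs.

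Of the 19 genes of shared regions in both tables, 11 had risen in K1-ER and in Nan/+ liver (57.9%, 95% Wilson interval 36.3 to 76.9), and 4 (21.1%) had risen in K1-ER and fallen in the liver, E2f2 and Sox6 among them. Over all 102 genes found in both tables these shares were 38.2% (29.4 to 47.9) and 24.5%, and the intervals of the first overlap. Where the authors' tables give a gene's locus, for 180 genes, 121 of 204 regions had their KLF1 summit inside that locus. The other 83 lay 137 to 84108 bp outside it, with a median of 7220 bp, and 48 of them were within 10 kb.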

How the data were processed

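Analysis began from tables the authors deposited. Each peak list gives, per the file headers, mm9 intervals, summits, a fold enrichment (ratio of ChIP over input), a rank (a score within the list), the distance between paired summits (the only value of another kind the authors deposited here), a location label, a gene and a central motif. The submitters' processing notes name MACS 1.4.2, TopHat2 2.0.10 and mm9; the step that gave genes and motifs, and the program behind the expression values, were not given in the sources used here. The expression tables hold the authors' FPKM (1 value per group), log2 fold changes, and p-values with q-values, per the file headers. A gene is called at the authors' q of at most 0.05.

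Intervals of the lists were joined with Python 3.11.15 and pandas 2.3.3 at 1 bp of overlap, tested on simulated intervals. With 1 ChIP library per factor no test between factors was possible; counts, medians and shares with 95% Wilson intervals (SciPy 1.17.1) cover counting error only. Whether the clones are separate cultures beyond their names is not stated. Read depth is unknown. Regions, gene lists and motif classes were chosen with earlier results of these data known. Named regions are the 8 with the highest fold in each list, the 3 lowest, all regions at listed genes with called or high values, and the genes with most regions; named genes are the 6 largest rises and 4 largest falls per comparison where the higher group reached 1 FPKM, of which 1 is not reported here. The lists cover 14 groups of genes; lymphoid, hepatocyte and megakaryocyte markers had 1, 0 and 2 genes in the liver table. No genome of build mm9 was used, so no peak sequence beyond the motif is shown.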

Additional observations from a re-analysis of the deposited data

How the results depend on the processing

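Of 71 values under other settings, 58 kept within the spread or within 1.5 times the reported count, 13 moved and 0 reversed direction. Requiring summits at most 50 bp apart, a choice made after seeing the data, left 485 regions (counting a summit of any overlapping Nan-KLF1 interval; 479 by the interval of longest overlap), with median folds of 119.57 (KLF1) and 136.47 (Nan-KLF1), the same motif in both lists at 57.1%, 68 genes risen in K1-ER and 5 fallen in the liver. Leaving out genes with a promoter peak gave 64 risen in K1-ER and 52 in K1-NanER. At q of at most 0.01, 2 genes had fallen in K1-ER, 53 had risen and 5 fallen in K1-NanER, and 23 had risen and 3 fallen in the liver; these settings keep fewer regions or genes by construction. Other definitions gave 741 (50% of the shorter interval covered), 530 (50% of both), 610 (fold of at least 50 in both lists) and 723 regions (not promoter in either list), all of them among the 744. No paired analysis was possible because the deposited tables give 1 value per group, and for the same reason no replicate could be left out. Depth is not given, so a KLF1 region without a Nan-KLF1 peak cannot be read as unbound.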

Other observations

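The 3 shared regions of Fcgr3 on chromosome 1 were evenly spaced, with neighbouring Nan-KLF1 summits 7618 to 7628 bp apart. The intervals had KLF1 folds of 157.09, 175.16 and 179.27, and no motif was given in either list. The 4 regions of Rn4.5s, a small RNA gene, also formed a row without motifs, over 34205 bp of chromosome 6, with Nan-KLF1 folds from 119.19 to 272.4. Repeated sequence at these places was not tested, since no genome was used.

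Several shared regions carry the name of a microRNA gene. The region downstream of Mir26b had a KLF1 fold of 268.75 with ccCCAccc, and those of Mir5122 had folds of 37.49 and 173.63. The regions of Mir182, Mir148a and Mir23a had KLF1 folds of 64.34, 71.91 and 79.86.

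Regions in UTRs had the highest median KLF1 fold of the location classes, 162.78 over 27 regions (95% interval of the median 77.0 to 261.65), against 104.82 over 404 intron regions (95.25 to 117.68); the intervals overlap. Regions whose gene had risen in K1-ER had a median KLF1 fold of 138.12 (116.06 to 175.11, n = 127), against 105.685 (95.79 to 115.1, n = 530) for regions whose gene is not in the 4sU table. For all regions whose gene is in that table, risen or not, the median was 125.68 (109.62 to 144.57, n = 177). That interval overlaps both others, but the 177 regions include the 127, so this overlap decides nothing. Regions in the table whose gene had not risen were not taken alone. The contrast therefore does not separate having risen from being in the table.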
